A study of Danio rerio with 23 samples.

Results

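The comparison described here sets larvae lacking both GLO1 and AKR1A1A (DKO) against wild-type (WT) larvae, gene by gene, in RNA-seq of whole larvae. It covered the 6 DKO libraries and the 6 WT libraries of a series of 23, and all 19765 of 22856 listed genes that passed a filter on low counts. Every library was prepared from zebrafish of the strain Tg(fli1:EGFP), in which a fli1 promoter drives EGFP in endothelial cells, and all larvae were untreated and taken at 96 h post fertilisation (hpf), a clutch with 20 larvae for each library. The GLO1KO and AKR1A1AKO lines had been made by CRISPR/Cas9, and DKO and WT lines were both derived from intercrossed double heterozygotes and then kept separately. The 6 GLO1KO and 5 AKR1A1AKO libraries are used below only to place the DKO values. They are not given for every list, so a difference between DKO and WT larvae is not by itself particular to the double loss. Genotype and the background of each line cannot be told apart.

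GLO1 is the first enzyme of the glutathione-dependent glyoxalase pathway, which converts methylglyoxal, a reactive by-product of glycolysis, to D-lactate. AKR1A1A belongs to the aldo-keto reductases, which reduce reactive aldehydes such as acrolein with NADPH. At this stage of zebrafish development the liver, exocrine pancreas and gut have begun to work while yolk is being used up, the heart beats, the retina responds to light, and cartilage, muscle and the nervous system are still growing. The bulk RNA of a whole larva mixes all of these, so fewer cells of a type and less RNA per cell cannot be told apart in any value below.

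GLO1 (ENSDARG00000068978), the targeted gene, measured 2.73 to 4.16 CPM (median 3.68) in DKO, against 73.5 to 87.1 CPM (median 83.8) in WT. It was 2.85 to 3.45 CPM (median 3.33) in GLO1KO larvae and 74.5 to 86.9 CPM (median 82.1) in AKR1A1AKO larvae, so the loss followed the labels. The gene akr1a1a was not analysed here. Library totals were 34690759 to 35098799 counts in DKO and 35164298 to 36804421 counts in WT, and each DKO library had a lower total than each WT library. Levels are given throughout in CPM, each library's counts per 1e+06 counts of its total after TMM scaling, which corrects the totals for composition. The TMM factors behind these CPM values were computed over all 23 libraries and were 0.925 to 0.944 in DKO and 1.06 to 1.08 in WT. For each test TMM was computed anew on the libraries compared. With library totals alone the log2 fold change of the median gene moved to -0.18, against -0.0057 with TMM, so that genes described below as higher are higher relative to that shift. The WT libraries were spread out, with WT replicate 1 farthest from the DKO libraries. On the first principal component of the 12 libraries, which held 50.9% of the variance, WT replicates 1 to 6 lay in order at -162.3, -112.2, -87.8, -76.5, -64.0 and -51.8. The DKO libraries lay between 85.6 and 100.2. On the second component, which held 12.6%, WT replicates 1 to 3 lay at 16.9 to 79.5 and WT replicates 4 to 6 at -92.8 to -52.0. The cause of this order was not tested. WT replicate 1 was the highest WT library for 27.16% of all genes tested and the lowest for 28.31%, and its share is given for each gene group in which either exceeded 50%. WT replicate 2 lay nearest to it. Counts without both are given where they differ from those of all 12 libraries by over 1.5 times, except for some small counts.

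A gene was called higher or lower where edgeR's quasi-likelihood test gave a Benjamini-Hochberg adjusted p under 0.05 and a fold change above 1.5. By this rule 1447 genes (7.32%) were higher and 3560 (18.0%) lower in DKO than in WT larvae, 25.3% in either direction, and the CPM ranges of the groups did not overlap for 37.9%. Leaving out WT replicates 1 and 2, an alternative chosen after the data were seen, gave 1185 higher and 3073 lower. With library totals in place of TMM the same counts were 681 higher and 4856 lower, and 28.9% of calls with TMM but 12.3% with library totals were in the higher direction. These percentages are the background for every group of genes below. Genes were then read in 48 lists, 28 of tissues and 20 of processes, of 13 to 145 genes each.

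**Figure D1:**
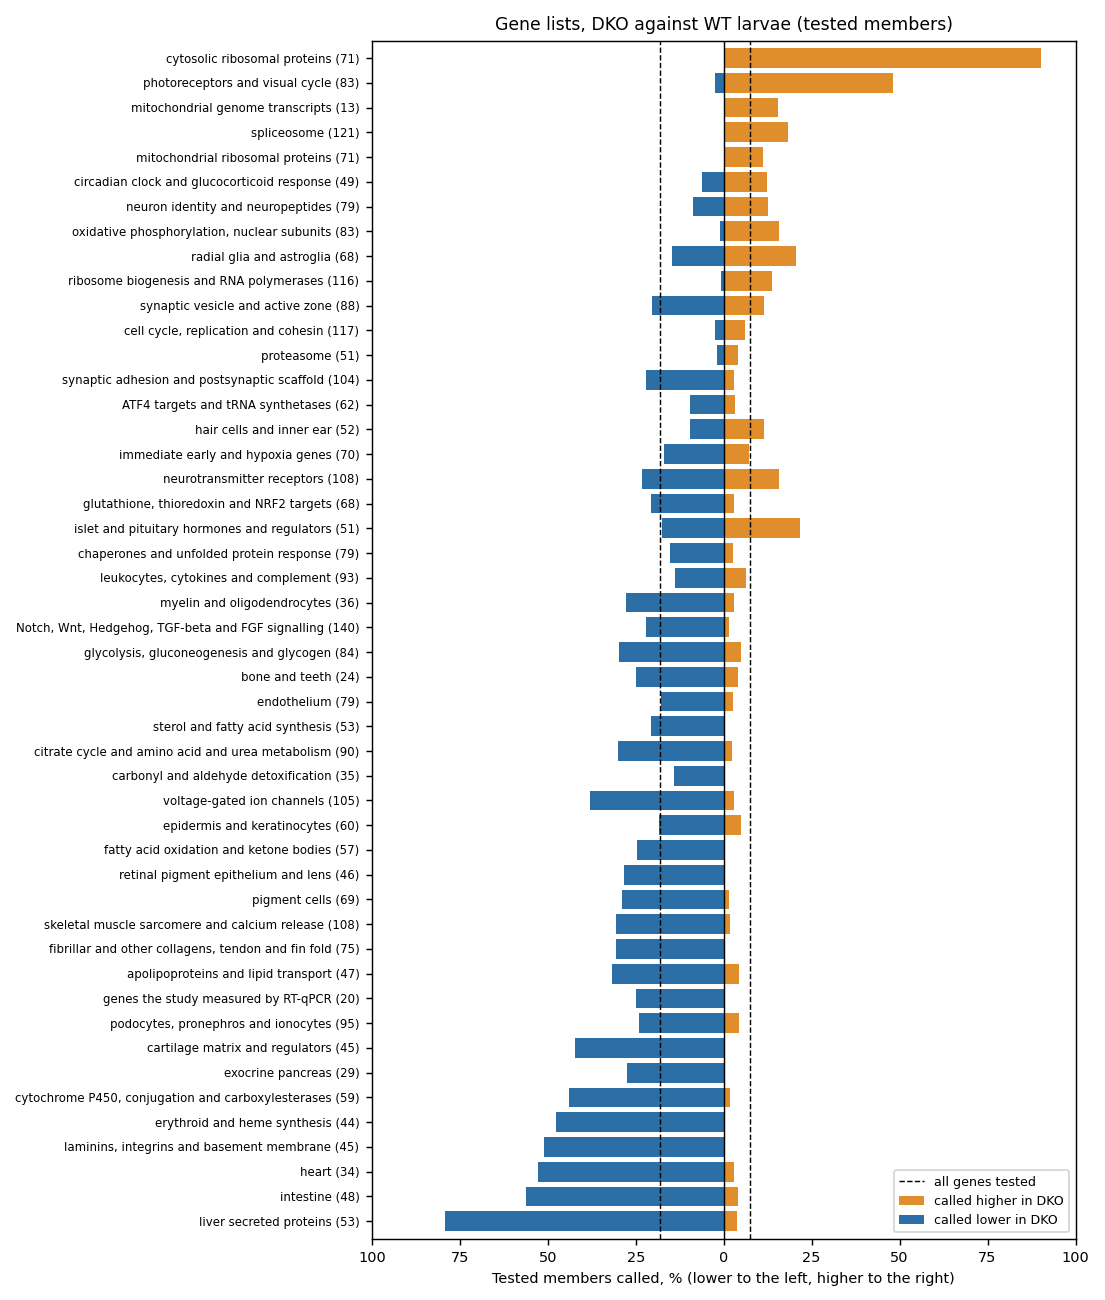
Percent of tested members called higher (right, orange) and lower (left, blue) in DKO against WT larvae for each of the 48 gene lists, ordered by their median log2 fold change; vertical lines mark the background of all genes, 7.32% higher and 18.0% lower. Cytosolic ribosomal proteins and photoreceptors stand at the higher end, and secreted liver proteins, the intestine and the heart at the lower end.

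Among genes with the largest falls that belonged to no tissue list was DGAT2 (ENSDARG00000018846), an acyltransferase that completes triglyceride synthesis, with 0.991 to 2.64 CPM (median 1.58) in DKO, against 5.47 to 33.5 CPM (median 7.71) in WT (log2 fold change -3.00, SE 0.482, edgeR adjusted p = 8.19e-05). PXN (ENSDARG00000060766), paxillin, an adaptor of focal adhesions, measured 0.332 to 0.882 CPM (median 0.508) in DKO, against 2.86 to 6.47 CPM (median 3.05) in WT (log2 fold change -2.80, SE 0.268, edgeR adjusted p = 6.37e-07). The groups did not overlap for either gene. A gene listed only by its identifier, ENSDARG00000117646, measured 3.26 to 5.83 CPM (median 4.96) in DKO, against 28.8 to 58.8 CPM (median 39.2) in WT (log2 fold change -3.11, SE 0.169, edgeR adjusted p = 2.86e-09). Of the genes that rose most, parapinopsinb (ENSDARG00000044672), a non-visual opsin known from the pineal complex, measured 7.22 to 10.4 CPM (median 9.23) in DKO, against 1.54 to 4.44 CPM (median 2.47) in WT (log2 fold change 1.73, SE 0.231, edgeR adjusted p = 1.52e-05). nme2a (ENSDARG00000043820), a nucleoside diphosphate kinase, measured 64.9 to 91.7 CPM (median 80.0) in DKO, against 21.06 to 34.4 CPM (median 28.8) in WT (log2 fold change 1.47, SE 0.114, edgeR adjusted p = 8.38e-08). Both were higher in every DKO library than in any WT library.

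Genes for proteins that the liver secretes fell more widely than those of any other of the 48 lists. Of 53 tested genes for secreted liver proteins, 42 (79.2%) fell, 2 rose and 9 did not pass, with a median log2 fold change of -1.14. WT replicate 1 was the highest WT library for 46 of the 53, and without it 39 members were lower with a median of -0.92. Without WT replicates 1 and 2 the count was 29 and the median -0.72. The mean log2(CPM + 1) of the list, relative to the WT mean, was -1.17 to -0.37 (median -0.86) in DKO and -0.53 to 0.72 (median -0.13) in WT. tfa (ENSDARG00000016771), transferrin, the iron carrier of plasma, measured 195 to 439.8 CPM (median 234) in DKO, against 494 to 1650.2 CPM (median 755) in WT (log2 fold change -1.76, SE 0.291, edgeR adjusted p = 0.000105). GC (ENSDARG00000089310), the vitamin D-binding protein, measured 8.79 to 24.3 CPM (median 13.5) in DKO, against 28.7 to 82.0 CPM (median 38.5) in WT (log2 fold change -1.72, SE 0.291, edgeR adjusted p = 0.000131). TTR (ENSDARG00000037191), transthyretin, which carries thyroid hormone, measured 2.82 to 12.1 CPM (median 5.89) in DKO, against 13.1 to 26.2 CPM (median 19.2) in WT (log2 fold change -1.55, SE 0.264, edgeR adjusted p = 0.000139). For these carrier proteins the lowest WT library lay above the highest DKO library.

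Members of the same list with roles in complement and clotting are given next. c8a (ENSDARG00000039516), a subunit of the membrane attack complex, measured 2.46 to 5.64 CPM (median 3.72) in DKO, against 6.49 to 23.001 CPM (median 10.9) in WT (log2 fold change -1.80, SE 0.289, edgeR adjusted p = 8.26e-05), with no overlap. c9 (ENSDARG00000016319), which completes that complex, measured 13.2 to 39.3 CPM (median 17.4) in DKO, against 34.4 to 139 CPM (median 61.3) in WT (log2 fold change -1.87, SE 0.336, edgeR adjusted p = 0.000217), and here the ranges did overlap. PLG (ENSDARG00000023111), plasminogen, the precursor of the clot-dissolving protease plasmin, measured 15.1 to 37.3 CPM (median 21.982) in DKO, against 33.1 to 103 CPM (median 56.4) in WT (log2 fold change -1.46, SE 0.281, edgeR adjusted p = 0.000395), also with overlap. Just 2 members rose. c3a.4 (ENSDARG00000093198), a copy of complement C3, measured 0.341 to 0.789 CPM (median 0.654) in DKO, against 0.157 to 0.409 CPM (median 0.305) in WT (log2 fold change 1.06, SE 0.277, edgeR adjusted p = 0.00401). hamp (ENSDARG00000102175), hepcidin, the hormone that limits iron export, measured 0.248 to 1.16 CPM (median 0.775) in DKO, against 0.201 to 0.434 CPM (median 0.343) in WT (log2 fold change 1.27, SE 0.332, edgeR adjusted p = 0.00391). The ranges overlapped for both. Set against these, fabp10a (ENSDARG00000038439), the liver fatty acid-binding protein that is widely used as a hepatocyte marker, measured 96.009 to 214 CPM (median 148) in DKO, against 117 to 212 CPM (median 158) in WT (log2 fold change -0.093, SE 0.190, edgeR adjusted p = 0.684), with fully overlapping groups.

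In the group of apolipoproteins and lipid transport 15 of 47 tested members (31.9%) fell and 2 rose, with a median of -0.34. For 31 of the 47, WT replicate 1 was the highest WT library, and without WT replicates 1 and 2 the counts were 8 lower and 7 higher with a median of -0.068. LCAT (ENSDARG00000099424), which esterifies cholesterol in lipoproteins, measured 0.552 to 1.41 CPM (median 0.775) in DKO, against 2.78 to 9.26 CPM (median 4.47) in WT (log2 fold change -2.54, SE 0.338, edgeR adjusted p = 1.45e-05). APOB (ENSDARG00000042780), a structural protein of lipoproteins, measured 15.1 to 30.3 CPM (median 19.3) in DKO, against 24.0 to 93.0 CPM (median 37.1) in WT (log2 fold change -1.20, SE 0.298, edgeR adjusted p = 0.00274), and the groups overlapped for APOB but not for LCAT. Of the genes of cytochrome P450 enzymes, conjugation and carboxylesterases, 26 of 59 (44.1%) fell and 1 rose. CYP7A1 (ENSDARG00000069018), the rate-limiting enzyme of bile acid synthesis, measured 6.83 to 13.0 CPM (median 9.92) in DKO, against 22.3 to 70.29 CPM (median 30.8) in WT (log2 fold change -2.05, SE 0.301, edgeR adjusted p = 3.68e-05). ugt5a1 (ENSDARG00000016479), a glucuronosyltransferase, measured 0.332 to 0.766 CPM (median 0.474) in DKO, against 1.49 to 6.39 CPM (median 2.32) in WT (log2 fold change -2.68, SE 0.386, edgeR adjusted p = 3.02e-05). The member that rose, CYP27A1 (ENSDARG00000069186), a sterol hydroxylase, had a log2 fold change of 0.63 with overlapping ranges, and without WT replicate 1 or DKO replicate 6 its log2 fold change was 0.50 to 0.57, which did not pass. Among WT libraries replicate 1 was the highest for 45 of these 59 genes, and 18 were lower without it and 16 without WT replicates 1 and 2.

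Of 48 tested intestinal genes 27 (56.2%) fell and 2 rose, with a median of -0.78. WT replicate 1 was the highest WT library for 43 of the 48, and without it 21 were lower with a median of -0.51. When WT replicates 1 and 2 were left out, 16 were lower and 5 higher, with a median of -0.33. SLC6A19 (ENSDARG00000091560), the neutral amino acid transporter of the brush border, measured 8.31 to 15.8 CPM (median 11.9) in DKO, against 28.0 to 103 CPM (median 34.7) in WT (log2 fold change -2.15, SE 0.322, edgeR adjusted p = 4.41e-05). SLC15A1 (ENSDARG00000044528), the peptide transporter PEPT1, measured 7.49 to 15.6 CPM (median 12.5) in DKO, against 19.0 to 87.3 CPM (median 25.4) in WT (log2 fold change -1.73, SE 0.344, edgeR adjusted p = 0.000508). SLC5A1 (ENSDARG00000013871), the sodium-glucose cotransporter, measured 7.37 to 12.5 CPM (median 11.5) in DKO, against 16.5 to 54.8 CPM (median 21.0) in WT (log2 fold change -1.45, SE 0.286, edgeR adjusted p = 0.000482). Each of these transporters was lower in every DKO library than in any WT library. The same was true of VIL1 (ENSDARG00000040466), villin, which bundles the actin of microvilli, with 78.1 to 129 CPM (median 99.3) in DKO, against 142 to 377 CPM (median 168) in WT (log2 fold change -1.12, SE 0.237, edgeR adjusted p = 0.000853), and of the transcription factor cdx1b (ENSDARG00000116139), with medians of 8.57 CPM in DKO and 15.3 CPM in WT (log2 fold change -0.91). The rising members were FABP6 (ENSDARG00000044566), the ileal bile acid-binding protein, with 169.6 to 248 CPM (median 233) in DKO, against 105 to 153 CPM (median 119.6) in WT (log2 fold change 0.83, SE 0.0982, edgeR adjusted p = 4.8e-06), and ctsl.1 (ENSDARG00000003902), a cathepsin L protease, with 86.3 to 126 CPM (median 94.4) in DKO, against 52.2 to 85.6 CPM (median 60.3) in WT (log2 fold change 0.59, SE 0.132, edgeR adjusted p = 0.00124). Neither overlapped, but for ctsl.1 the call was at the threshold, and without WT replicate 2, 3 or 4 or DKO replicate 1 or 2 its log2 fold change was 0.51 to 0.58, which did not pass.

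Among the digestive enzymes of the exocrine pancreas the number of lower genes rested in part on WT replicate 1. Of 29 tested members 8 (27.6%) fell, none rose and the median was -0.52. WT replicate 1 was the highest WT library for 25 of the 29, and without it 5 were lower and the median was -0.15. The list level, the mean log2(CPM + 1) of the exocrine pancreas members relative to the WT mean, was -0.45 to -0.039 in DKO, against 1.02 and 0.61 in WT replicates 1 and 2 and -0.46 to -0.32 in the other 4 WT libraries. Without these 2 WT libraries 2 members were lower, 3 higher and the median turned to 0.19. cela1.4 (ENSDARG00000043171), an elastase, measured 0.514 to 0.981 CPM (median 0.552) in DKO, against 1.23 to 6.34 CPM (median 1.85) in WT (log2 fold change -2.23, SE 0.416, edgeR adjusted p = 0.000302), the only member whose groups did not overlap. ctrb.1 (ENSDARG00000090428), a chymotrypsinogen, measured 48.9 to 82.8 CPM (median 60.2) in DKO, against 66.2 to 401 CPM (median 85.0) in WT (log2 fold change -1.33, SE 0.397, edgeR adjusted p = 0.00932), and its log2 fold change without WT replicate 1 was -0.80. Other defining genes of the tissue did not pass the test. prss1 (ENSDARG00000042993), trypsinogen, measured 101.30 to 202 CPM (median 151) in DKO, against 102 to 382 CPM (median 119) in WT (log2 fold change -0.25, SE 0.305, edgeR adjusted p = 0.498). PTF1A (ENSDARG00000014479), the transcription factor of acinar cells, measured 1.76 to 3.06 CPM (median 2.13) in DKO, against 1.35 to 2.33 CPM (median 1.89) in WT (log2 fold change 0.28, SE 0.174, edgeR adjusted p = 0.183).

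Against the GLO1KO larvae these digestive groups ran in the other direction. The comparisons share the DKO libraries, so their values are given side by side. Of 28 pancreatic genes tested, 21 were higher and none lower in DKO than in GLO1KO larvae, with a median log2 fold change of 0.96, where 2.98% of all 19581 genes were higher and 1.26% lower. For the intestine 28 were higher and none lower with a median of 0.75, and for secreted liver proteins 28 of 51 were higher and 1 lower with a median of 0.68. Against AKR1A1AKO larvae, where 3.76% of all 19745 genes were higher and 8.11% lower, 16 pancreatic, 7 intestinal and 5 liver genes were higher in DKO larvae, and no pancreatic, 2 intestinal and no liver genes were lower. The hepatocyte gene fabp10a, which did not differ between DKO and WT larvae, was 29.7 to 79.7 CPM (median 65.2) in GLO1KO larvae, and DKO exceeded GLO1KO with log2 fold change 1.31, SE 0.217, edgeR adjusted p = 0.000753. For prss1 the GLO1KO libraries measured 23.6 to 100.52 CPM (median 61.6), and DKO exceeded them with log2 fold change 1.32, SE 0.268, edgeR adjusted p = 0.00307. SLC15A1 was 2.76 to 7.65 CPM (median 5.55) in GLO1KO larvae, and here too DKO was the higher (log2 fold change 1.13, SE 0.199, edgeR adjusted p = 0.00114).

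**Figure D2:**
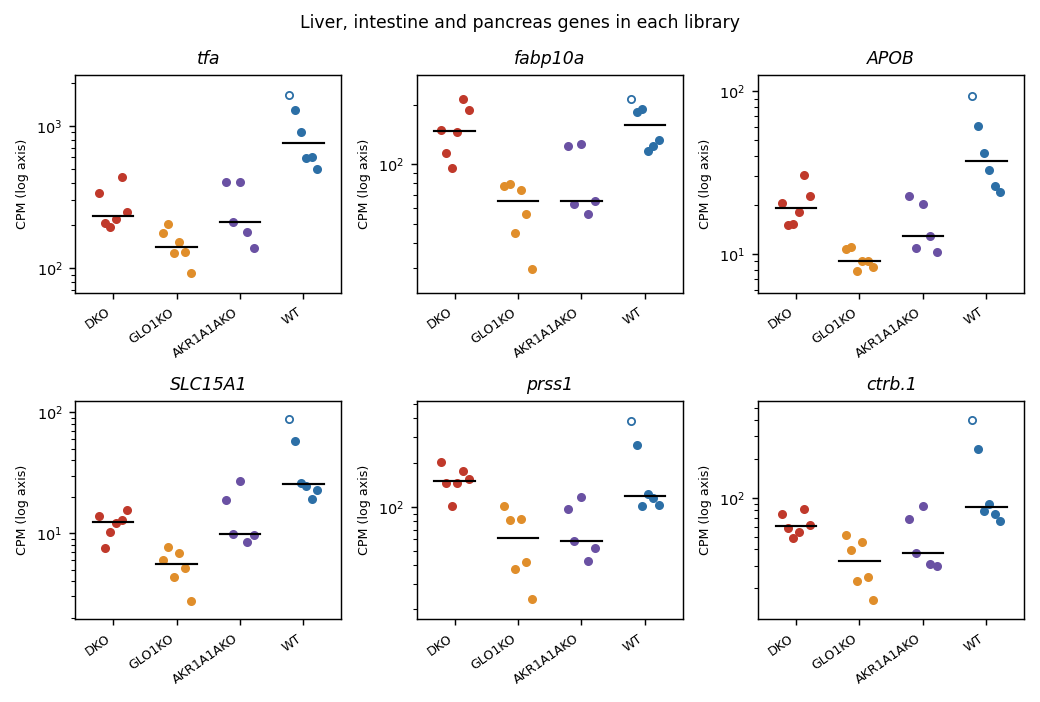
CPM on a log axis of 6 genes of liver, pancreas and intestine in each library of DKO, GLO1KO, AKR1A1AKO and WT larvae; points are libraries and horizontal bars are group medians, and the WT library drawn as an open symbol is WT replicate 1. For prss1 and fabp10a the DKO and WT points overlap while the GLO1KO medians lie below both; for tfa and SLC15A1 the DKO points lie below WT.

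Iron uptake and red cell genes fell together. Of 44 tested genes of erythroid cells and heme synthesis 21 (47.7%) fell and none rose, with a median of -0.53. The list level was -0.57 to -0.28 (median -0.43) in DKO and -0.10 to 0.12 (median 0.0062) in WT, with no overlap. It was -0.53 to -0.37 in GLO1KO and -0.45 to -0.22 in AKR1A1AKO larvae. tfr1a (ENSDARG00000101322), the transferrin receptor that developing red cells need for iron in zebrafish, measured 2.75 to 3.25 CPM (median 2.99) in DKO, against 17.8 to 33.5 CPM (median 20.5) in WT (log2 fold change -2.89, SE 0.144, edgeR adjusted p = 1.62e-09). Its paralog tfr1b (ENSDARG00000077372) measured 25.7 to 34.5 CPM (median 30.2) in DKO, against 85.9 to 130.4 CPM (median 92.0) in WT (log2 fold change -1.73, SE 0.104, edgeR adjusted p = 7.26e-09). Both receptor genes were lower in every DKO library. TFR2 (ENSDARG00000103727), a receptor through which the liver senses transferrin, measured 0.0613 to 0.613 CPM (median 0.212) in DKO, against 1.04 to 4.93 CPM (median 2.22) in WT (log2 fold change -3.18, SE 0.485, edgeR adjusted p = 5.15e-05). Its groups did not overlap either, but its DKO values were close to the lower limit of measurement.

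Other genes of the same list moved unequally. klf1 (ENSDARG00000017400), the transcription factor of globin genes, measured 0.0906 to 1.01 CPM (median 0.580) in DKO, against 1.57 to 2.66 CPM (median 1.94) in WT (log2 fold change -1.79, SE 0.325, edgeR adjusted p = 0.000241). EPOR (ENSDARG00000090834), the erythropoietin receptor, measured 0.213 to 0.828 CPM (median 0.353) in DKO, against 1.23 to 1.48 CPM (median 1.397) in WT (log2 fold change -1.54, SE 0.283, edgeR adjusted p = 0.000258). SLC4A1 (ENSDARG00000012881), the anion exchanger band 3, measured 8.01 to 26.9 CPM (median 16.7) in DKO, against 26.9 to 41.6 CPM (median 34.6) in WT (log2 fold change -1.08, SE 0.212, edgeR adjusted p = 0.000464). These 3 did not overlap, but the lowest DKO value of klf1 was close to the lower limit of measurement. Near-identical copies of the globins share reads, so single copies are uncertain. hbae3 (ENSDARG00000079305), an alpha globin, measured 166 to 218 CPM (median 200.4) in DKO, against 275 to 337 CPM (median 298) in WT (log2 fold change -0.63, SE 0.0739, edgeR adjusted p = 4.1e-06). By contrast hbae1.1 (ENSDARG00000089475) measured 6.22 to 10.6 CPM (median 8.01) in DKO, against 5.28 to 7.81 CPM (median 5.73) in WT (log2 fold change 0.44, SE 0.130, edgeR adjusted p = 0.0081), under the fold threshold. cahz (ENSDARG00000011166), the carbonic anhydrase of red cells, measured 52.5 to 66.2 CPM (median 58.8) in DKO, against 54.8 to 65.1 CPM (median 59.6) in WT (log2 fold change -0.038, SE 0.0607, edgeR adjusted p = 0.604), with overlapping groups.

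Of 34 tested heart genes 18 (52.9%) fell and 1 rose, with a median of -0.77. For 21 of the 34, WT replicate 1 was the highest WT library. The median was -0.58 without it and -0.44 without WT replicates 1 and 2, with 15 lower. The list level was -0.41 to -0.37 (median -0.40) in DKO and -0.18 to 0.34 (median -0.031) in WT, with no overlap. It was -0.45 to -0.39 in GLO1KO and -0.38 to -0.19 in AKR1A1AKO larvae. The summed CPM of the heart list, which abundant members dominate, differed less, at 736 to 808 in DKO and 828 to 971 in WT. TBX20 (ENSDARG00000005150), a cardiac T-box factor, measured 0.426 to 1.56 CPM (median 1.07) in DKO, against 3.18 to 4.83 CPM (median 3.70) in WT (log2 fold change -1.88, SE 0.242, edgeR adjusted p = 1.06e-05). HCN4 (ENSDARG00000061685), the pacemaker channel, measured 0.941 to 1.41 CPM (median 0.989) in DKO, against 1.91 to 2.90 CPM (median 2.45) in WT (log2 fold change -1.17, SE 0.163, edgeR adjusted p = 2.22e-05). atp2a2a (ENSDARG00000029439), the calcium pump that refills the sarcoplasmic reticulum of the heart, measured 22.7 to 35.044 CPM (median 24.9) in DKO, against 39.7 to 68.0 CPM (median 46.1) in WT (log2 fold change -0.90, SE 0.128, edgeR adjusted p = 2.73e-05). Each of them was lower in all DKO libraries than in any WT library. gata4 (ENSDARG00000098952), an endodermal and cardiac factor, had a larger fold change (-3.04) at medians of 0.169 CPM in DKO and 1.095 CPM in WT, close to the lower limit of measurement, and its ranges overlapped. MYH6 (ENSDARG00000079564), atrial myosin, measured 60.4 to 69.3 CPM (median 67.0) in DKO, against 69.6 to 92.9 CPM (median 78.6) in WT (log2 fold change -0.28, SE 0.0667, edgeR adjusted p = 0.00215), a difference without overlap but under the fold threshold. The member that rose was kcnh6a (ENSDARG00000001803), the potassium channel that repolarises the zebrafish heart, with 8.91 to 13.4 CPM (median 11.9) in DKO, against 7.29 to 7.93 CPM (median 7.65) in WT (log2 fold change 0.59, SE 0.0858, edgeR adjusted p = 3.09e-05), and without WT replicate 2 or DKO replicate 1, 4 or 6 its log2 fold change was 0.55 to 0.58, which did not pass.

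Of 108 tested skeletal muscle genes 33 (30.6%) fell and 2 rose, with a median of -0.33. The list level was -0.42 to -0.27 in DKO and -0.12 to 0.11 in WT. It was -0.46 to -0.29 in GLO1KO and -0.42 to -0.085 in AKR1A1AKO larvae. That level gives each gene the same weight. The summed CPM of the list, which abundant members dominate, was 105536 to 115886 in DKO and 93904 to 104236 in WT. Over all genes tested the sum was also higher in DKO, at 1059530 to 1081490 against 923654 to 944224 in WT. MYOM1 (ENSDARG00000104836), myomesin, which links thick filaments at the M-band, measured 34.4 to 47.1 CPM (median 35.9) in DKO, against 152 to 249 CPM (median 174) in WT (log2 fold change -2.27, SE 0.114, edgeR adjusted p = 1.62e-09). XIRP2 (ENSDARG00000091090), a Xin actin-binding repeat protein of muscle attachment sites, measured 6.25 to 12.6 CPM (median 9.30) in DKO, against 36.0 to 70.5 CPM (median 46.2) in WT (log2 fold change -2.40, SE 0.177, edgeR adjusted p = 5.16e-08). JPH1 (ENSDARG00000058603), junctophilin, which ties the sarcoplasmic reticulum to the surface membrane, measured 3.69 to 6.68 CPM (median 5.13) in DKO, against 15.0 to 22.1 CPM (median 16.7) in WT (log2 fold change -1.78, SE 0.129, edgeR adjusted p = 4.51e-08). Each of these 3 was lower in every DKO library. Lower in the same way were RYR1 (ENSDARG00000023797), the ryanodine receptor, at 57.9 to 77.7 CPM (median 71.6) in DKO, against 103 to 199 CPM (median 157) in WT (log2 fold change -1.12, SE 0.141, edgeR adjusted p = 8.69e-06) and CACNA1S (ENSDARG00000042552), its voltage sensor, at 24.1 to 43.3 CPM (median 33.7) in DKO, against 64.8 to 94.7 CPM (median 74.4) in WT (log2 fold change -1.15, SE 0.122, edgeR adjusted p = 1.6e-06). trdn (ENSDARG00000041779), triadin, which anchors calsequestrin beside the ryanodine receptor, had medians of 19.0 CPM in DKO and 51.6 CPM in WT and a log2 fold change of -1.43. None of these 6 genes overlapped between the groups.

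Several defining genes of muscle did not fall in the same libraries. ckma (ENSDARG00000035327), muscle creatine kinase, measured 5433 to 6384 CPM (median 5901) in DKO, against 4370.4 to 5329 CPM (median 4873) in WT (log2 fold change 0.26, SE 0.0582, edgeR adjusted p = 0.00123). pvalb1 (ENSDARG00000037789), parvalbumin, the calcium buffer of fast fibres, measured 12545 to 18022 CPM (median 15966) in DKO, against 9454 to 11152 CPM (median 10661) in WT (log2 fold change 0.54, SE 0.0734, edgeR adjusted p = 1.67e-05). In both cases every DKO library was above every WT library, but the fold change stayed under 1.5, and for pvalb1 without DKO replicate 6 its log2 fold change was 0.60, which passed. ACTA1 (ENSDARG00000055618), a skeletal actin, measured 1790.5 to 2054 CPM (median 1849.8) in DKO, against 1850.4 to 2093 CPM (median 1976) in WT (log2 fold change -0.085, SE 0.0478, edgeR adjusted p = 0.134), whereas its second copy ACTA1 (ENSDARG00000036371) fell to 159 to 270.4 CPM (median 204) in DKO, against 321 to 469 CPM (median 398) in WT (log2 fold change -0.95, SE 0.119, edgeR adjusted p = 7.78e-06). The members that rose were TNNI2 (ENSDARG00000013752), a fast troponin I, with 9.59 to 16.1 CPM (median 12.2) in DKO, against 3.88 to 5.55 CPM (median 4.87) in WT (log2 fold change 1.36, SE 0.129, edgeR adjusted p = 6.01e-07), and CKMT2 (ENSDARG00000069615), mitochondrial creatine kinase, with 296 to 332 CPM (median 318) in DKO, against 157 to 238 CPM (median 211) in WT (log2 fold change 0.61, SE 0.0840, edgeR adjusted p = 2.14e-05). For CKMT2 without WT replicate 1 or 2 its log2 fold change was 0.54 to 0.58, which did not pass. MYOD1 (ENSDARG00000030110), the myogenic transcription factor, measured 7.02 to 11.5 CPM (median 8.35) in DKO, against 5.11 to 8.25 CPM (median 6.68) in WT (log2 fold change 0.37, SE 0.139, edgeR adjusted p = 0.0293), under the fold threshold.

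Cartilage genes fell, with matrix proteins of growing cartilage and their regulators among them. Of 45 tested members 19 (42.2%) fell and none rose, with a median of -0.48, and the list level was -0.49 to -0.41 (median -0.47) in DKO and -0.29 to 0.19 (median 0.026) in WT. acanb (ENSDARG00000045799), aggrecan, the large proteoglycan that holds water in cartilage, measured 0.243 to 1.21 CPM (median 0.586) in DKO, against 2.91 to 9.29 CPM (median 6.21) in WT (log2 fold change -3.24, SE 0.308, edgeR adjusted p = 6.02e-07). SOX9 (ENSDARG00000003293), the transcription factor that specifies chondrocytes, measured 10.9 to 12.9 CPM (median 11.9) in DKO, against 25.9 to 28.1 CPM (median 27.3) in WT (log2 fold change -1.20, SE 0.0546, edgeR adjusted p = 1.16e-09). COL11A2 (ENSDARG00000012422), a collagen of cartilage fibrils, measured 140.2 to 163 CPM (median 152) in DKO, against 222 to 307 CPM (median 286) in WT (log2 fold change -0.88, SE 0.0674, edgeR adjusted p = 7.47e-08). Each of these separated the groups. ihhb (ENSDARG00000058815), an Indian hedgehog ligand that paces chondrocyte maturation, had medians of 0.539 CPM in DKO and 2.08 CPM in WT and a log2 fold change of -1.92. The main collagen of cartilage, COL2A1 (ENSDARG00000069093), measured 1330.4 to 1494 CPM (median 1431) in DKO, against 1533 to 1996 CPM (median 1764) in WT (log2 fold change -0.33, SE 0.0550, edgeR adjusted p = 0.000108), under the fold threshold, and its second copy COL2A1 (ENSDARG00000011407) measured 361 to 425 CPM (median 369) in DKO, against 341 to 432 CPM (median 389) in WT (log2 fold change -0.046, SE 0.0585, edgeR adjusted p = 0.511). Bone and teeth, with 6 of 24 lower and 1 higher, WT replicate 1 the highest WT library for 15, a median of -0.14 and 2 lower without WT replicates 1 and 2, were near the background.

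**Figure D3:**
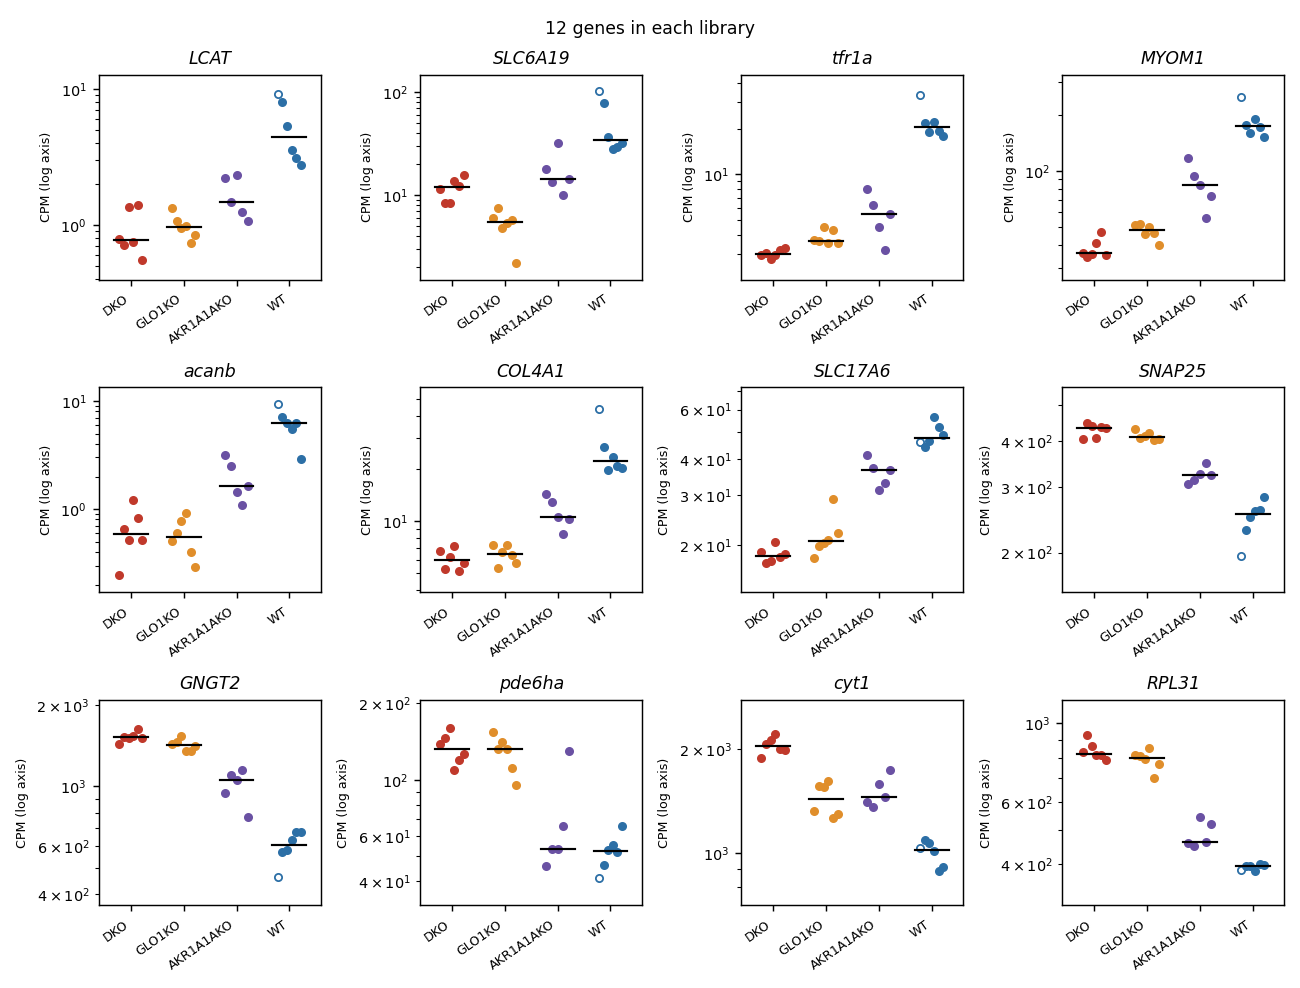
CPM on a log axis of 12 genes in each library of DKO, GLO1KO, AKR1A1AKO and WT larvae, with horizontal bars at the group medians and WT replicate 1 drawn as an open symbol. They belong to liver, intestine, iron uptake, muscle, cartilage, basement membrane, glutamatergic neurons, the presynapse, cones, epidermis and the ribosome, and in each panel the DKO and WT points are separate.

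Genes of the basement membrane fell together with the matrix of cartilage. Of 45 tested laminins, integrins and basement membrane genes 23 (51.1%) fell and none rose, with a median of -0.60, and 64.4% had ranges that did not overlap. For this group WT replicate 1 was the highest WT library for 32 of the 45, and without it 21 were lower with a median of -0.50. No member was called between DKO and GLO1KO larvae, but only 2.98% of all genes were higher and 1.26% lower there. Against AKR1A1AKO larvae 1 of 45 was higher and 8 lower in DKO, where 3.76% of all genes were higher and 8.11% lower. The list level was -0.60 to -0.50 in DKO, -0.66 to -0.51 in GLO1KO and -0.44 to -0.23 in AKR1A1AKO larvae. COL4A1 (ENSDARG00000055009), a chain of the collagen IV that forms the sheet of every basement membrane, measured 5.18 to 7.16 CPM (median 5.98) in DKO, against 19.6 to 43.9 CPM (median 22) in WT (log2 fold change -2.10, SE 0.185, edgeR adjusted p = 2.78e-07). Its partner chain COL4A2 (ENSDARG00000104110) measured 4.17 to 5.73 CPM (median 5.01) in DKO, against 15.4 to 40.1 CPM (median 21.2) in WT (log2 fold change -2.24, SE 0.190, edgeR adjusted p = 1.89e-07). PXDN (ENSDARG00000098733), peroxidasin, the enzyme that cross-links collagen IV, measured 1.84 to 2.82 CPM (median 2.21) in DKO, against 6.41 to 15.4 CPM (median 8.005) in WT (log2 fold change -2.06, SE 0.199, edgeR adjusted p = 7.07e-07). The collagen IV chains col4a3, COL4A4 and col4a5 were not called, although col4a5 was lower in every DKO library than in any WT library. col4a3 (ENSDARG00000003395) measured 6.90 to 10.6 CPM (median 7.91) in DKO, against 4.60 to 7.68 CPM (median 6.45) in WT (log2 fold change 0.41, SE 0.137, edgeR adjusted p = 0.0179). COL4A4 (ENSDARG00000002831) measured 3.13 to 4.69 CPM (median 4.197) in DKO, against 3.70 to 5.34 CPM (median 4.24) in WT (log2 fold change -0.12, SE 0.129, edgeR adjusted p = 0.433) and col4a5 (ENSDARG00000052063) measured 195 to 215 CPM (median 202) in DKO, against 227 to 346 CPM (median 255) in WT (log2 fold change -0.39, SE 0.0798, edgeR adjusted p = 0.000628), all under the fold threshold.

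Further genes of that list fell as well. HSPG2 (ENSDARG00000076564), perlecan, measured 15.6 to 19.5 CPM (median 18.1) in DKO, against 25.3 to 59.9 CPM (median 35.7) in WT (log2 fold change -1.13, SE 0.160, edgeR adjusted p = 2.67e-05). ITGB3 (ENSDARG00000056767), an integrin beta subunit, measured 2.00 to 3.87 CPM (median 2.88) in DKO, against 7.79 to 15.0 CPM (median 9.02) in WT (log2 fold change -1.75, SE 0.174, edgeR adjusted p = 9e-07). sgcg (ENSDARG00000038107), gamma-sarcoglycan, part of the complex that ties the muscle membrane to laminin, measured 14.2 to 21.2 CPM (median 16.7) in DKO, against 53.4 to 65.6 CPM (median 55.7) in WT (log2 fold change -1.79, SE 0.0929, edgeR adjusted p = 1.96e-09), and the delta and beta subunits SGCD (ENSDARG00000098573) and SGCB (ENSDARG00000052341) had log2 fold changes of -1.16 and -0.91. None of these 5 overlapped. Over the wider group of collagens, tendon and fin fold genes 23 of 75 (30.7%) fell and none rose, with a median of -0.33. For 58 of the 75, WT replicate 1 was the highest WT library, and 14 were lower without WT replicates 1 and 2 and 35 with library totals. There col8a1a (ENSDARG00000077403), a short-chain collagen, measured 6.92 to 10.9 CPM (median 7.81) in DKO, against 24.5 to 45.9 CPM (median 39.1) in WT (log2 fold change -2.23, SE 0.144, edgeR adjusted p = 1.55e-08).

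Photoreceptor genes went the other way. Of 83 tested genes of photoreceptors and the visual cycle 40 (48.2%) rose, 2 fell and 77 had a log2 fold change above 0, with a median of 0.56. The list level was 0.46 to 0.58 (median 0.51) in DKO and -0.22 to 0.21 (median 0.0052) in WT. It was 0.49 to 0.63 in GLO1KO and 0.32 to 0.51 in AKR1A1AKO larvae. In this list WT replicate 1 was the lowest WT library for 57 of the 83, and without it 37 were higher with a median of 0.50. With library totals in place of TMM 23 were higher and 3 lower, with a median of 0.38, against -0.18 for all genes.

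Among the members with the smallest p were genes of cone transduction. GNGT2 (ENSDARG00000103543), a gamma subunit of cone transducin, measured 1439.9 to 1629 CPM (median 1516) in DKO, against 464 to 678 CPM (median 608) in WT (log2 fold change 1.33, SE 0.0779, edgeR adjusted p = 5.71e-09). pde6ha (ENSDARG00000102558), the inhibitory subunit of the cone phosphodiesterase, measured 109 to 160.1 CPM (median 132) in DKO, against 41.3 to 65.9 CPM (median 52.6) in WT (log2 fold change 1.34, SE 0.110, edgeR adjusted p = 1.48e-07). GNAT2 (ENSDARG00000042529), the alpha subunit of cone transducin, measured 1585 to 1788 CPM (median 1615) in DKO, against 743 to 1081 CPM (median 984) in WT (log2 fold change 0.78, SE 0.0722, edgeR adjusted p = 4.83e-07). The groups did not overlap for any of them. In rods saga (ENSDARG00000012610), an arrestin, measured 157 to 195 CPM (median 167) in DKO, against 62.032 to 99.5 CPM (median 80.5) in WT (log2 fold change 1.08, SE 0.104, edgeR adjusted p = 6.2e-07). crx (ENSDARG00000011989), the homeobox factor of photoreceptors, measured 159.9 to 176 CPM (median 168) in DKO, against 70.19 to 111 CPM (median 98.5) in WT (log2 fold change 0.80, SE 0.0859, edgeR adjusted p = 1.84e-06). opn1mw1 (ENSDARG00000097008), a green cone opsin, stayed under the fold threshold, with 1682 to 1945 CPM (median 1763) in DKO, against 1117 to 1504 CPM (median 1405) in WT (log2 fold change 0.37, SE 0.0655, edgeR adjusted p = 0.000189). The members that fell were SLC24A2 (ENSDARG00000063158), a sodium-calcium exchanger of cones and neurons, with 2.73 to 4.43 CPM (median 3.34) in DKO, against 8.20 to 10.6 CPM (median 8.68) in WT (log2 fold change -1.39, SE 0.113, edgeR adjusted p = 1.18e-07), and nrl (ENSDARG00000100466), a rod fate factor, with 1.26 to 2.29 CPM (median 1.79) in DKO, against 2.62 to 3.13 CPM (median 2.87) in WT (log2 fold change -0.74, SE 0.151, edgeR adjusted p = 0.000673).

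Members known from the retina were among those that rose in other lists. In those lists, as over all genes, more members fell than rose. The channel list had 3 members higher (2.86%) and 40 lower (38.1%). The synaptic vesicle list had 10 (11.4%) and 18 (20.5%), and the receptor list 17 (15.7%) and 25 (23.1%). Over all genes 7.32% were higher and 18.0% lower. CACNA1F (ENSDARG00000023683), the calcium channel of photoreceptor terminals, measured 56.0 to 66.9 CPM (median 59.6) in DKO, against 23.2 to 47.2 CPM (median 32.5) in WT (log2 fold change 0.84, SE 0.144, edgeR adjusted p = 0.000145). cplx4c (ENSDARG00000094889), a complexin of retinal ribbon synapses, measured 18.9 to 24.2 CPM (median 21.6) in DKO, against 10.9 to 13.4 CPM (median 11.4) in WT (log2 fold change 0.85, SE 0.0778, edgeR adjusted p = 4.02e-07). GABRR1 (ENSDARG00000043902), an ionotropic GABA receptor subunit, measured 15.9 to 25.5 CPM (median 18.3) in DKO, against 8.03 to 10.9 CPM (median 9.59) in WT (log2 fold change 1.01, SE 0.112, edgeR adjusted p = 2.5e-06). None of them overlapped between DKO and WT larvae.

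The lens and pigment genes did not share this direction. Of 46 tested genes of the retinal pigment epithelium and lens 13 (28.3%) fell and none rose, with a median of -0.22. BFSP2 (ENSDARG00000011998), phakinin, a beaded filament protein of lens fibres, measured 17.2 to 27.3 CPM (median 18.8) in DKO, against 50.9 to 91.0 CPM (median 64.7) in WT (log2 fold change -1.71, SE 0.161, edgeR adjusted p = 5.22e-07). MIP (ENSDARG00000013963), the water channel of lens fibres, measured 80.7 to 102 CPM (median 89.2) in DKO, against 138 to 157 CPM (median 145) in WT (log2 fold change -0.71, SE 0.0597, edgeR adjusted p = 1.68e-07). cryba1l1 (ENSDARG00000032929), a beta crystallin, measured 287 to 370.3 CPM (median 346) in DKO, against 593 to 797 CPM (median 667) in WT (log2 fold change -1.05, SE 0.0833, edgeR adjusted p = 1.04e-07). None of these lens fibre genes overlapped between DKO and WT. In GLO1KO and AKR1A1AKO larvae the medians were 27.7 and 50.1 CPM for BFSP2 and 128 and 145 CPM for MIP, all above the DKO medians of 18.8 and 89.2 CPM. DKO was lower than GLO1KO for BFSP2 (log2 fold change -0.62, SE 0.175, edgeR adjusted p = 0.0219) and for MIP (log2 fold change -0.49, SE 0.0625, edgeR adjusted p = 8.3e-05), although the second difference was under the fold threshold. A crystallin outside that list, crygm2f (ENSDARG00000078134), rose, with 6.25 to 8.37 CPM (median 6.75) in DKO, against 1.66 to 3.24 CPM (median 2.09) in WT (log2 fold change 1.56, SE 0.173, edgeR adjusted p = 2.61e-06), but crystallin gamma M genes are near-identical copies and its value is uncertain. Among pigment cell genes 20 of 69 (29.0%) fell and 1 rose. TYR (ENSDARG00000039077), tyrosinase, the first enzyme of melanin synthesis, measured 10.4 to 13.2 CPM (median 12.1) in DKO, against 25.9 to 47.5 CPM (median 33.2) in WT (log2 fold change -1.56, SE 0.120, edgeR adjusted p = 7.47e-08).

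Neuronal genes moved both ways, in proportions that differed between lists. Of the voltage-gated channels 40 of 105 (38.1%) were lower and 3 higher, with a median of -0.19. The summed CPM of the channels, which abundant members dominate, overlapped, at 1634 to 1825 in DKO and 1510 to 2025 in WT. Neurotransmitter receptors went both ways, with 17 of 108 higher (15.7%), 25 lower (23.1%) and a median of -0.019, and 10 higher without WT replicates 1 and 2 and 7 with library totals. In the list of neuron identity and neuropeptides 10 of 79 rose and 7 fell with a median of 0.27, against 3 higher and 8 lower at a median of 0.089 with library totals. WT replicate 1 was the lowest of the WT libraries for 48 of these 79, for 57 of the receptor genes and for 50 of the synaptic vesicle genes. Synaptic vesicle genes had 10 higher (11.4%) and 18 lower (20.5%) of 88 with a median of 0.095. Synaptic adhesion genes had 3 higher (2.88%) and 23 lower (22.1%) of 104 with a median of 0.063. Both medians turned negative with library totals, to -0.082 and -0.11.

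Among the channels KCNA1 (ENSDARG00000062942), which limits firing in axons, measured 5.39 to 7.14 CPM (median 6.19) in DKO, against 15.3 to 17.4 CPM (median 16.3) in WT (log2 fold change -1.41, SE 0.0733, edgeR adjusted p = 1.96e-09). SCN4B (ENSDARG00000099031), an accessory subunit of sodium channels, measured 0.967 to 1.46 CPM (median 1.27) in DKO, against 6.11 to 9.19 CPM (median 7.59) in WT (log2 fold change -2.61, SE 0.132, edgeR adjusted p = 1.75e-09). kcnc3a (ENSDARG00000055855), which permits fast spiking, measured 9.84 to 11.3 CPM (median 10.8) in DKO, against 26.2 to 34.6 CPM (median 29.6) in WT (log2 fold change -1.50, SE 0.0754, edgeR adjusted p = 1.62e-09). All 3 separated the groups. At the synapse SLC17A6 (ENSDARG00000001127), the vesicular glutamate transporter of many excitatory neurons, measured 17.3 to 20.5 CPM (median 18.3) in DKO, against 44.1 to 56.4 CPM (median 47.8) in WT (log2 fold change -1.42, SE 0.0669, edgeR adjusted p = 1.24e-09). SYT2 (ENSDARG00000025206), a fast calcium sensor of release, measured 4.65 to 6.04 CPM (median 5.09) in DKO, against 16.3 to 25.1 CPM (median 20.3) in WT (log2 fold change -1.96, SE 0.109, edgeR adjusted p = 3.44e-09). By contrast SNAP25 (ENSDARG00000058117), a core protein of vesicle fusion, measured 407 to 447 CPM (median 436) in DKO, against 195 to 283 CPM (median 254) in WT (log2 fold change 0.79, SE 0.0728, edgeR adjusted p = 4.46e-07). No library of one group reached into the other for any of these.

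The receptors with the smallest p among those that fell were CHRM2 (ENSDARG00000098612), a muscarinic receptor, with 0.582 to 1.18 CPM (median 0.878) in DKO, against 4.98 to 6.06 CPM (median 5.402) in WT (log2 fold change -2.58, SE 0.149, edgeR adjusted p = 5e-09), and gabbr1b (ENSDARG00000016667), a GABA-B receptor subunit, with 8.55 to 12.2 CPM (median 10.1) in DKO, against 19.7 to 33.8 CPM (median 27.18) in WT (log2 fold change -1.45, SE 0.128, edgeR adjusted p = 3.05e-07). nlgn4xb (ENSDARG00000077761), a neuroligin, measured 2.18 to 2.67 CPM (median 2.26) in DKO, against 8.23 to 10.6 CPM (median 9.24) in WT (log2 fold change -2.001, SE 0.0938, edgeR adjusted p = 1.24e-09). l1camb (ENSDARG00000015025), an axonal adhesion molecule, had medians of 13.0 CPM in DKO and 40.4 CPM in WT and a log2 fold change of -1.61. Each of these was lower in every DKO library than in any WT library. The neuronal RNA-binding protein nova1 (ENSDARG00000020178), a splicing regulator, fell to 18.0 to 24.3 CPM (median 21.7) in DKO, against 65.8 to 83.0 CPM (median 72.0) in WT (log2 fold change -1.76, SE 0.0742, edgeR adjusted p = 6.33e-10). By contrast gap43 (ENSDARG00000099744), a growth cone protein, measured 167 to 203 CPM (median 197) in DKO, against 88.8 to 125 CPM (median 116) in WT (log2 fold change 0.74, SE 0.0782, edgeR adjusted p = 1.64e-06), and the neuropeptides VIP (ENSDARG00000078247) and NPY (ENSDARG00000036222) had log2 fold changes of 0.83 and 0.78. ELAVL3 (ENSDARG00000014420), a marker of neurons in general, measured 279.8 to 304 CPM (median 298) in DKO, against 274 to 386 CPM (median 323) in WT (log2 fold change -0.15, SE 0.0749, edgeR adjusted p = 0.101), and its ranges overlapped.

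Glia showed a similar mixture. Of 68 tested genes of radial glia and astroglia 14 (20.6%) rose and 10 (14.7%) fell, with a median of 0.20. For 40 of the 68, WT replicate 1 was the lowest WT library. When WT replicates 1 and 2 were left out, 9 were higher, and the balance turned to 7 higher and 11 lower at a median of 0.022 with library totals. Members that fell included transporters and a channel of glia. SLC6A11 (ENSDARG00000087981), a GABA transporter, measured 34.6 to 41.8 CPM (median 37.7) in DKO, against 102 to 121 CPM (median 112) in WT (log2 fold change -1.58, SE 0.0602, edgeR adjusted p = 3.05e-10). SLC1A3 (ENSDARG00000043148), a glutamate transporter, measured 25.014 to 31.1 CPM (median 27.7) in DKO, against 53.4 to 63.6 CPM (median 59.5) in WT (log2 fold change -1.12, SE 0.0617, edgeR adjusted p = 3.33e-09). KCNJ10 (ENSDARG00000090815), an inwardly rectifying potassium channel, measured 2.54 to 3.06 CPM (median 2.89) in DKO, against 7.66 to 8.91 CPM (median 8.02) in WT (log2 fold change -1.51, SE 0.0815, edgeR adjusted p = 2.74e-09). The groups were separate for each. Members that rose included FABP7 (ENSDARG00000007697), a brain fatty acid-binding protein, at 494 to 541 CPM (median 521) in DKO, against 220.2 to 330.5 CPM (median 298) in WT (log2 fold change 0.83, SE 0.0771, edgeR adjusted p = 4.76e-07) and MDK (ENSDARG00000020708), the growth factor midkine, at 509 to 553 CPM (median 523) in DKO, against 248 to 331 CPM (median 310.4) in WT (log2 fold change 0.78, SE 0.0632, edgeR adjusted p = 1.17e-07). GFAP (ENSDARG00000025301), the glial filament protein, measured 236 to 304 CPM (median 259) in DKO, against 215 to 286 CPM (median 273) in WT (log2 fold change -0.013, SE 0.0805, edgeR adjusted p = 0.895), with overlapping groups.

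In myelinating cells 10 of 36 (27.8%) fell and 1 rose, with a median of -0.084. MYRF (ENSDARG00000078676), the transcription factor that starts myelin gene expression, measured 1.153 to 1.92 CPM (median 1.44) in DKO, against 5.45 to 8.93 CPM (median 6.97) in WT (log2 fold change -2.25, SE 0.154, edgeR adjusted p = 2.63e-08). mag (ENSDARG00000104023), a glycoprotein of the innermost myelin layer, measured 10.5 to 14.8 CPM (median 13.1) in DKO, against 28.3 to 35.6 CPM (median 30.7) in WT (log2 fold change -1.28, SE 0.0833, edgeR adjusted p = 1.63e-08). mbpa (ENSDARG00000036186), myelin basic protein, measured 58.5 to 78.3 CPM (median 67.2) in DKO, against 50.8 to 60.6 CPM (median 57.8) in WT (log2 fold change 0.25, SE 0.0735, edgeR adjusted p = 0.0081), under the fold threshold. In hair cells and the inner ear 6 of 52 rose and 5 fell, with a median of 0.018 that was -0.16 with library totals. POU4F3 (ENSDARG00000006206), a hair cell fate factor, measured 7.75 to 10.030 CPM (median 8.32) in DKO, against 4.05 to 5.34 CPM (median 5.00) in WT (log2 fold change 0.78, SE 0.0900, edgeR adjusted p = 3.79e-06). otomp (ENSDARG00000040306), an otolith matrix protein, measured 1.03 to 1.93 CPM (median 1.39) in DKO, against 2.43 to 9.59 CPM (median 3.90) in WT (log2 fold change -1.81, SE 0.325, edgeR adjusted p = 0.000219). The groups were separate for both.

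Endothelium, marked in this strain by the transgene, stood near the background, with 14 of 79 lower (17.7%) and 2 higher and a median of -0.16. cdh5 (ENSDARG00000075549), VE-cadherin, the junction protein of endothelial cells, measured 33.3 to 40.8 CPM (median 37.1) in DKO, against 31.5 to 36.0 CPM (median 34.8) in WT (log2 fold change 0.086, SE 0.0562, edgeR adjusted p = 0.196). nrp1b (ENSDARG00000027290), a co-receptor of VEGF, measured 4.27 to 5.26 CPM (median 4.90) in DKO, against 12.4 to 15.8 CPM (median 14.4) in WT (log2 fold change -1.59, SE 0.0826, edgeR adjusted p = 1.96e-09). stab2 (ENSDARG00000045748), a scavenger receptor of venous endothelium, measured 7.74 to 10.8 CPM (median 9.49) in DKO, against 5.18 to 5.47 CPM (median 5.37) in WT (log2 fold change 0.79, SE 0.0910, edgeR adjusted p = 3.68e-06). The first of these overlapped between DKO and WT larvae and the others did not. TAGLN (ENSDARG00000045408), an actin-binding protein of smooth muscle that stood in the same list, measured 40.8 to 55.0 CPM (median 50.3) in DKO, against 25.6 to 36.8 CPM (median 29.8) in WT (log2 fold change 0.65, SE 0.0951, edgeR adjusted p = 3.63e-05). Its medians of 31.0 CPM in GLO1KO and 27.4 CPM in AKR1A1AKO larvae were close to WT, and DKO exceeded GLO1KO (log2 fold change 0.67, SE 0.0769, edgeR adjusted p = 3.87e-05) and AKR1A1AKO (log2 fold change 0.75, SE 0.0799, edgeR adjusted p = 5e-06).

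Leukocyte, cytokine and complement genes showed 6 of 93 higher and 13 lower, with a median of -0.06. csf1ra (ENSDARG00000102986), the macrophage and xanthophore growth factor receptor, measured 1.82 to 2.79 CPM (median 2.24) in DKO, against 4.62 to 11.3 CPM (median 6.504) in WT (log2 fold change -1.61, SE 0.188, edgeR adjusted p = 4.1e-06). STAT3 (ENSDARG00000022712), a cytokine-activated transcription factor, measured 7.20 to 10.4 CPM (median 8.28) in DKO, against 16.9 to 27.4 CPM (median 20.1) in WT (log2 fold change -1.28, SE 0.118, edgeR adjusted p = 4.44e-07). nfkb1 (ENSDARG00000105261), an NF-kappaB subunit, measured 0.858 to 1.79 CPM (median 1.36) in DKO, against 3.32 to 5.54 CPM (median 3.77) in WT (log2 fold change -1.56, SE 0.183, edgeR adjusted p = 4.33e-06). None overlapped. The interferon factor IRF7 (ENSDARG00000045661) rose, with 4.49 to 4.84 CPM (median 4.62) in DKO, against 2.44 to 3.87 CPM (median 2.95) in WT (log2 fold change 0.63, SE 0.112, edgeR adjusted p = 0.000203), but without WT replicate 2 its log2 fold change was 0.58, which did not pass.

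Of 95 tested genes of podocytes, pronephros and ionocytes 23 (24.2%) fell and 4 rose, with a median of -0.39, and 42 were lower with library totals. For 56 of the 95, WT replicate 1 was the highest WT library, and the median was -0.19 without WT replicates 1 and 2. PAX2 (ENSDARG00000032578), a factor of the developing kidney, ear and brain, measured 2.54 to 3.52 CPM (median 2.74) in DKO, against 6.49 to 8.46 CPM (median 7.64) in WT (log2 fold change -1.42, SE 0.109, edgeR adjusted p = 7.47e-08). SLC4A2 (ENSDARG00000052330), an anion exchanger, measured 3.16 to 4.06 CPM (median 3.72) in DKO, against 10.4 to 21.994 CPM (median 12.5) in WT (log2 fold change -1.95, SE 0.163, edgeR adjusted p = 1.59e-07). STC1 (ENSDARG00000058476), stanniocalcin, the hormone that lowers calcium uptake in fish, measured 8.36 to 10.6 CPM (median 9.85) in DKO, against 3.80 to 5.17 CPM (median 4.19) in WT (log2 fold change 1.14, SE 0.0949, edgeR adjusted p = 1.57e-07) and was higher in every DKO library. In the epidermis 11 of 60 fell and 3 rose, but WT replicate 1 was the highest WT library for 47 of the 60. Without it 6 were lower, without WT replicates 1 and 2 there were 5, and with library totals 17. The keratins that rose were the type I keratin cyt1 (ENSDARG00000092947), with 1892 to 2207 CPM (median 2041) in DKO, against 889 to 1095 CPM (median 1026) in WT (log2 fold change 1.02, SE 0.0571, edgeR adjusted p = 3.83e-09), and krt91 (ENSDARG00000036830), with 2699.8 to 3556 CPM (median 3216) in DKO, against 1637 to 1872 CPM (median 1814) in WT (log2 fold change 0.80, SE 0.0710, edgeR adjusted p = 2.89e-07). DSP (ENSDARG00000076673), desmoplakin, which anchors keratin at desmosomes, measured 18.2 to 22.971 CPM (median 21.14) in DKO, against 45.6 to 74.3 CPM (median 51.4) in WT (log2 fold change -1.37, SE 0.108, edgeR adjusted p = 9.74e-08). Every one of these 3 separated the groups.

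ANXA1 (ENSDARG00000026726), annexin A1, a membrane-binding protein of skin and leukocytes, rose with another order of genotypes. It measured 85.3 to 153 CPM (median 126) in DKO, against 41.8 to 64.4 CPM (median 46.8) in WT (log2 fold change 1.29, SE 0.148, edgeR adjusted p = 3.61e-06). In AKR1A1AKO larvae it was 111 to 141 CPM (median 127) and in GLO1KO larvae 49.5 to 66.9 CPM (median 56.6), so that DKO lay with AKR1A1AKO. The unnamed gene ENSDARG00000116606 had the same order, with 17.8 to 22.960 CPM (median 18.9) in DKO, against 5.89 to 8.78 CPM (median 6.80) in WT (log2 fold change 1.45, SE 0.0965, edgeR adjusted p = 1.99e-08), 16.6 to 20.1 CPM (median 18.7) in AKR1A1AKO and 5.76 to 7.64 CPM (median 6.65) in GLO1KO larvae. For MYOM1, described above, the medians were instead 35.9 CPM in DKO, 48.2 CPM in GLO1KO, 83.4 CPM in AKR1A1AKO and 174 CPM in WT larvae.

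**Figure D4:**
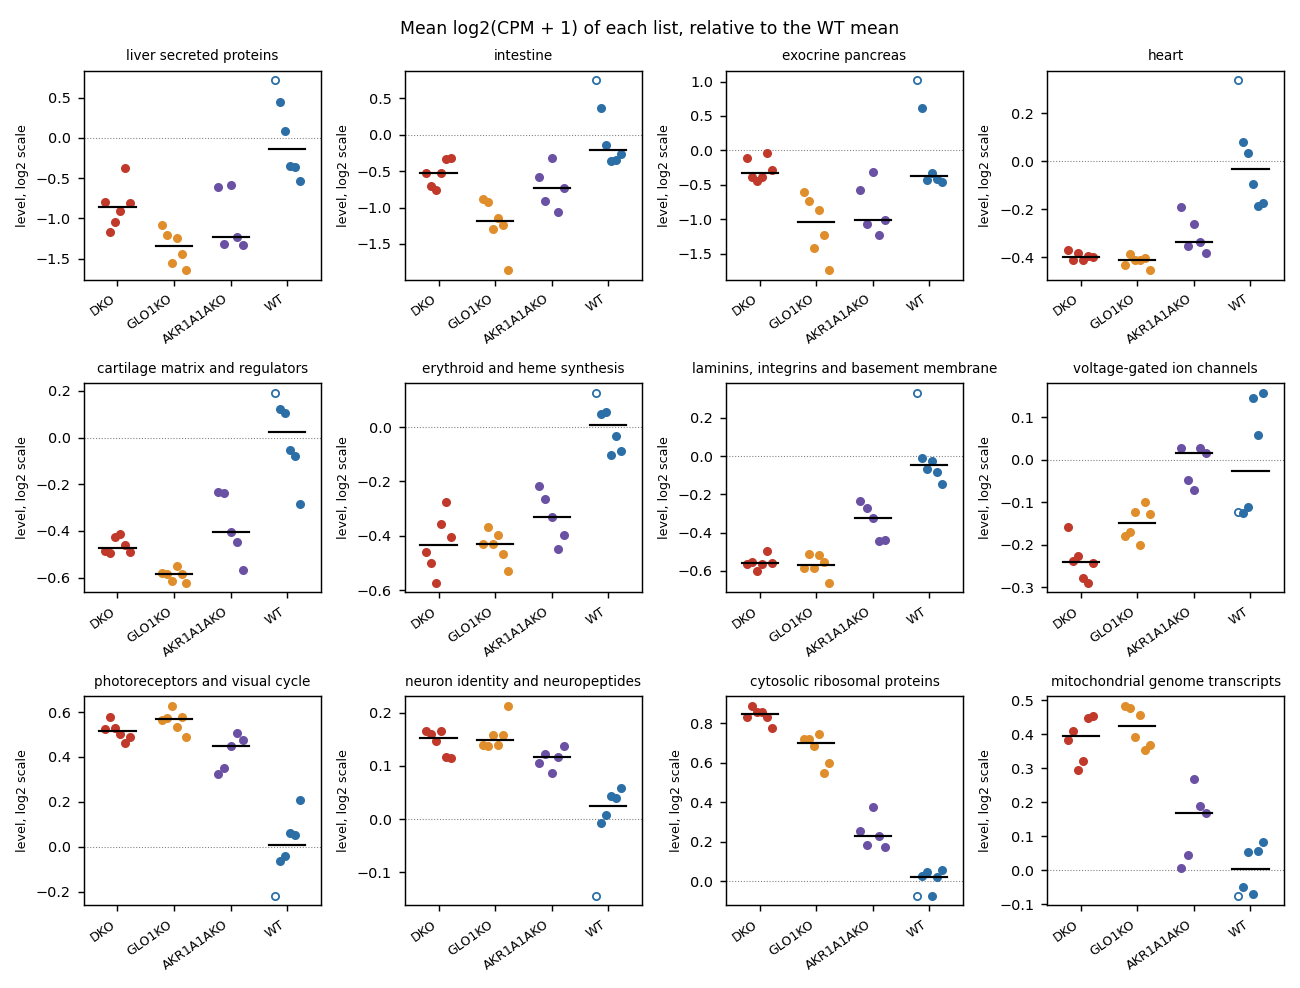
List level (mean log2(CPM + 1) of the tested members, relative to the mean of the WT libraries) in each library of DKO, GLO1KO, AKR1A1AKO and WT larvae for 12 gene lists, with horizontal bars at the group medians and WT replicate 1 as an open symbol. DKO lies above WT for ribosomal proteins, mitochondrial genome transcripts and photoreceptors and below it for heart, cartilage and erythroid genes without overlap, while liver and intestine overlap through WT and DKO libraries at the edge.

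Cytosolic ribosomal protein genes rose more widely than those of any other of the 48 lists. Of 71 tested, 64 (90.1%) rose, none fell, all 71 had a log2 fold change above 0, and the ranges were separate for 97.2%, with a median of 0.84. With library totals 47 were higher and the median was 0.67. The list level was 0.78 to 0.89 in DKO, 0.55 to 0.74 in GLO1KO, 0.17 to 0.38 in AKR1A1AKO and -0.074 to 0.055 in WT larvae. No member was called between DKO and GLO1KO larvae, where 2.98% of all genes were higher and 1.26% lower. Against AKR1A1AKO larvae 38 of 71 were higher in DKO and none lower, where 3.76% of all genes were higher and 8.11% lower. RPL31 (ENSDARG00000053365), of the large subunit, measured 788 to 927 CPM (median 821) in DKO, against 384 to 399 CPM (median 395) in WT (log2 fold change 1.08, SE 0.0441, edgeR adjusted p = 5.05e-10). Genes of the mitochondrial ribosome had a median of 0.34, with 8 of 71 higher and none lower, and ribosome biogenesis one of 0.19, with 16 of 116 higher and 1 lower. With library totals the mitochondrial ribosome had 3 higher at a median of 0.16, and ribosome biogenesis 4 higher and 2 lower at a median of 0.013. RSL24D1 (ENSDARG00000040439), an assembly factor of the large subunit, measured 335 to 408 CPM (median 380.2) in DKO, against 186 to 222 CPM (median 193) in WT (log2 fold change 0.93, SE 0.0587, edgeR adjusted p = 1.2e-08).

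Among spliceosome genes 22 of 121 (18.2%) rose and none fell, with a median of 0.40, and 13 were higher without WT replicates 1 and 2. The counts were 5 higher and 1 lower at a median of 0.22 with library totals, and for 67 of the 121, WT replicate 1 was the lowest WT library. SNRPF (ENSDARG00000105037), a ring protein of small nuclear ribonucleoproteins, measured 41.5 to 47.8 CPM (median 43.6) in DKO, against 24.4 to 28.8 CPM (median 25.3) in WT (log2 fold change 0.77, SE 0.0551, edgeR adjusted p = 4e-08). For the nuclear subunits of oxidative phosphorylation 13 of 83 (15.7%) rose and 1 fell, with a median of 0.25, against 3 higher and 4 lower at a median of 0.071 with library totals. NDUFB7 (ENSDARG00000033789), a subunit of complex I, measured 121 to 135 CPM (median 129.9) in DKO, against 65.3 to 79.8 CPM (median 74.5) in WT (log2 fold change 0.77, SE 0.0539, edgeR adjusted p = 3.09e-08). Of the 13 transcripts of the mitochondrial genome 2 passed the threshold, and 11 lay above 0, at a median of 0.43, and the groups were separate for 92.3%. With library totals 1 passed at a median of 0.25, and WT replicate 1 was the lowest of the WT libraries for 8. MT-ND6 (ENSDARG00000063922), the only one of them encoded on the light strand, measured 907 to 958 CPM (median 943) in DKO, against 397 to 535 CPM (median 417) in WT (log2 fold change 1.05, SE 0.0753, edgeR adjusted p = 3.94e-08). MT-CYB (ENSDARG00000063924), a subunit of complex III, measured 4515 to 4796 CPM (median 4687) in DKO, against 2932 to 3574 CPM (median 3275) in WT (log2 fold change 0.50, SE 0.0493, edgeR adjusted p = 8.04e-07).

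Carbon metabolism was lower in parts. Of 84 tested genes of glycolysis, gluconeogenesis and glycogen 25 (29.8%) fell and 4 rose, with a median of -0.13. SLC2A1 (ENSDARG00000007412), the glucose transporter of blood-brain barrier and red cells, measured 5.26 to 7.68 CPM (median 6.23) in DKO, against 17.3 to 23.9 CPM (median 19.5) in WT (log2 fold change -1.66, SE 0.105, edgeR adjusted p = 1.22e-08). PDK1 (ENSDARG00000013128), which switches off pyruvate dehydrogenase, measured 8.18 to 9.55 CPM (median 9.20) in DKO, against 16.1 to 17.5 CPM (median 16.8) in WT (log2 fold change -0.90, SE 0.0575, edgeR adjusted p = 1.42e-08). By contrast pdha1b (ENSDARG00000010555), a subunit of that enzyme complex, measured 15.0 to 19.2 CPM (median 16.7) in DKO, against 7.12 to 11.7 CPM (median 8.53) in WT (log2 fold change 0.94, SE 0.110, edgeR adjusted p = 4.21e-06). The kinase fell and the subunit of its target rose. TPI1 (ENSDARG00000025012), the glycolytic enzyme next to the branch at which methylglyoxal forms, measured 32.6 to 38.1 CPM (median 34.956) in DKO, against 18.1 to 22.7 CPM (median 21.2) in WT (log2 fold change 0.76, SE 0.0647, edgeR adjusted p = 1.99e-07). None overlapped. PCK1 (ENSDARG00000013522), a committed enzyme of gluconeogenesis, measured 50.9 to 179 CPM (median 145) in DKO, against 129.97 to 414 CPM (median 169.8) in WT (log2 fold change -0.80, SE 0.314, edgeR adjusted p = 0.0379), with overlap, and without WT replicate 1 or 2 or DKO replicate 2, 3 or 4 its log2 fold change was -0.82 to -0.54, which did not pass.

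In the citrate cycle and amino acid metabolism 27 of 90 (30.0%) fell and 2 rose, and for 49 of the 90 WT replicate 1 was the highest WT library. OAT (ENSDARG00000078425), ornithine aminotransferase, which links ornithine to proline and glutamate, measured 12.6 to 15.5 CPM (median 14.5) in DKO, against 27.8 to 39.7 CPM (median 30.8) in WT (log2 fold change -1.19, SE 0.0875, edgeR adjusted p = 5.05e-08). SAT1 (ENSDARG00000095908), the enzyme that starts polyamine breakdown, measured 71.6 to 96.6 CPM (median 83.3) in DKO, against 42.0 to 47.1 CPM (median 42.7) in WT (log2 fold change 0.93, SE 0.0628, edgeR adjusted p = 2.31e-08). The groups were separate for both, in opposite directions. Fatty acid oxidation had 14 of 57 lower (24.6%) and none higher, with WT replicate 1 the highest WT library for 38 and 9 lower without WT replicates 1 and 2, and sterol and fatty acid synthesis 11 of 53 lower (20.8%) and none higher. pparg (ENSDARG00000031848), a nuclear receptor of fat storage, measured 0.578 to 1.26 CPM (median 0.939) in DKO, against 3.02 to 14.6 CPM (median 4.64) in WT (log2 fold change -2.78, SE 0.400, edgeR adjusted p = 3.01e-05). ME1 (ENSDARG00000053215), malic enzyme, which supplies NADPH in the cytosol, measured 0.578 to 1.55 CPM (median 0.940) in DKO, against 4.46 to 8.76 CPM (median 5.90) in WT (log2 fold change -2.55, SE 0.245, edgeR adjusted p = 6.44e-07). acsl3a (ENSDARG00000032079), which activates long-chain fatty acids, measured 0.577 to 1.28 CPM (median 1.04) in DKO, against 2.51 to 6.47 CPM (median 4.35) in WT (log2 fold change -2.08, SE 0.232, edgeR adjusted p = 2.77e-06). The ranges of these lipid genes did not overlap.

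The stress responses that reactive carbonyls are known to touch stood near the background as groups. In carbonyl and aldehyde detoxification 5 of 35, GLO1 among them, fell and none rose, with a median of -0.19, and 3 were lower without WT replicates 1 and 2 and 8 with library totals. For 23 of the 35, WT replicate 1 was the highest WT library. aldh3a2b (ENSDARG00000029381), a fatty aldehyde dehydrogenase, measured 2.02 to 3.91 CPM (median 2.83) in DKO, against 5.82 to 20.7 CPM (median 8.497) in WT (log2 fold change -1.90, SE 0.284, edgeR adjusted p = 4.18e-05). ALDH4A1 (ENSDARG00000038207), a proline pathway dehydrogenase, measured 17.6 to 22.9 CPM (median 21.12) in DKO, against 40.4 to 59.5 CPM (median 43.2) in WT (log2 fold change -1.18, SE 0.102, edgeR adjusted p = 2.3e-07), both without overlap. Other enzymes of the list stayed under the fold threshold. ESD (ENSDARG00000019496), which hydrolyses S-formylglutathione, measured 31.6 to 35.014 CPM (median 34.2) in DKO, against 35.6 to 45.3 CPM (median 39.6) in WT (log2 fold change -0.25, SE 0.0625, edgeR adjusted p = 0.00308). PARK7 (ENSDARG00000116835), DJ-1, measured 31.1 to 34.5 CPM (median 33.7) in DKO, against 24.9 to 29.6 CPM (median 27.6) in WT (log2 fold change 0.27, SE 0.0559, edgeR adjusted p = 0.000615). Genes of glutathione, thioredoxin and the NRF2 response had 14 of 68 lower (20.6%) and 2 higher, with WT replicate 1 the highest WT library for 35 of the 68. GCLC (ENSDARG00000013095), the rate-limiting enzyme of glutathione synthesis, measured 33.4 to 40.0 CPM (median 36.952) in DKO, against 37.1 to 48.0 CPM (median 42.7) in WT (log2 fold change -0.23, SE 0.0658, edgeR adjusted p = 0.00703). HMOX1 (ENSDARG00000027529), heme oxygenase, measured 2.23 to 6.65 CPM (median 3.27) in DKO, against 1.76 to 5.41 CPM (median 2.53) in WT (log2 fold change 0.21, SE 0.315, edgeR adjusted p = 0.574). Those NRF2 targets overlapped between the groups.

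For ATF4 targets and tRNA synthetases 6 of 62 were lower and 2 higher, at a median of 0.056 that was -0.12 with library totals. SLC7A5 (ENSDARG00000099265), a large neutral amino acid transporter, measured 9.53 to 13.2 CPM (median 12.006) in DKO, against 32.5 to 39.5 CPM (median 35.3) in WT (log2 fold change -1.60, SE 0.0832, edgeR adjusted p = 1.96e-09). SHMT2 (ENSDARG00000104414), mitochondrial serine hydroxymethyltransferase, measured 15.1 to 17.3 CPM (median 16.0) in DKO, against 29.2 to 61.4 CPM (median 33.3) in WT (log2 fold change -1.30, SE 0.159, edgeR adjusted p = 6.5e-06). nupr1a (ENSDARG00000094300), a stress-induced chromatin protein, measured 63.0 to 75.6 CPM (median 68.1) in DKO, against 41.7 to 49.6 CPM (median 43.2) in WT (log2 fold change 0.61, SE 0.0627, edgeR adjusted p = 1.25e-06). The first pair fell and nupr1a rose, each without overlap, although for nupr1a without DKO replicate 4 its log2 fold change was 0.58, which did not pass. Among chaperones and the unfolded protein response 12 of 79 fell and 2 rose. The risers were CCT2 (ENSDARG00000104674), a subunit of the cytosolic chaperonin, with 254 to 273 CPM (median 259.9) in DKO, against 136 to 159.6 CPM (median 152) in WT (log2 fold change 0.78, SE 0.0448, edgeR adjusted p = 4.87e-09), and PFDN4 (ENSDARG00000061228), a subunit of prefoldin, which hands it substrates, with 31.3 to 37.8 CPM (median 35.2) in DKO, against 16.6 to 20.8 CPM (median 18.7) in WT (log2 fold change 0.90, SE 0.0679, edgeR adjusted p = 6.06e-08).

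The proteasome and the immediate early and hypoxia genes stayed at or under the background. Of 51 proteasome genes 2 rose and 1 fell, and of 70 immediate early and hypoxia genes 5 rose and 12 fell, or 2 and 10 without WT replicates 1 and 2. None of the second group was higher with library totals. The cell cycle list held 7 of 117 higher and 3 lower, with a median of 0.092 that was -0.085 with library totals. mki67 (ENSDARG00000091150), a marker of dividing cells, measured 141 to 164 CPM (median 154) in DKO, against 111 to 154 CPM (median 138) in WT (log2 fold change 0.17, SE 0.0727, edgeR adjusted p = 0.0589). hmgb2b (ENSDARG00000053990), a chromatin protein of proliferating cells, measured 323 to 367 CPM (median 337) in DKO, against 174 to 215 CPM (median 197) in WT (log2 fold change 0.79, SE 0.0550, edgeR adjusted p = 3.16e-08). CCND2 (ENSDARG00000051748), cyclin D2, measured 3.98 to 4.95 CPM (median 4.55) in DKO, against 9.69 to 15.3 CPM (median 10.7) in WT (log2 fold change -1.35, SE 0.115, edgeR adjusted p = 2.11e-07). The clock and glucocorticoid list had 6 of 49 higher and 3 lower with a median of 0.32, against 3 higher and 4 lower at a median of 0.14 with library totals. aanat2 (ENSDARG00000079802), the pineal enzyme of melatonin synthesis, measured 5.71 to 10.9 CPM (median 9.58) in DKO, against 3.75 to 4.86 CPM (median 4.56) in WT (log2 fold change 1.01, SE 0.137, edgeR adjusted p = 1.77e-05). ASMT (ENSDARG00000098249), which completes that synthesis, measured 7.82 to 9.12 CPM (median 8.45) in DKO, against 4.08 to 5.79 CPM (median 5.31) in WT (log2 fold change 0.69, SE 0.0938, edgeR adjusted p = 1.71e-05). CLOCK (ENSDARG00000011703), a core clock activator, measured 5.15 to 8.27 CPM (median 7.48) in DKO, against 11.2 to 14.2 CPM (median 13.1) in WT (log2 fold change -0.86, SE 0.107, edgeR adjusted p = 7.78e-06). The pineal enzymes rose and CLOCK fell, with separate groups. The hour at which each clutch was collected was not given in the sources used here. Among genes of developmental signalling 31 of 140 (22.1%) fell and 2 rose. TGFB2 (ENSDARG00000027087), a TGF-beta ligand, measured 0.906 to 1.78 CPM (median 1.22) in DKO, against 4.38 to 7.63 CPM (median 5.36) in WT (log2 fold change -2.20, SE 0.171, edgeR adjusted p = 8.29e-08). Its groups did not overlap.

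**Figure D5:**
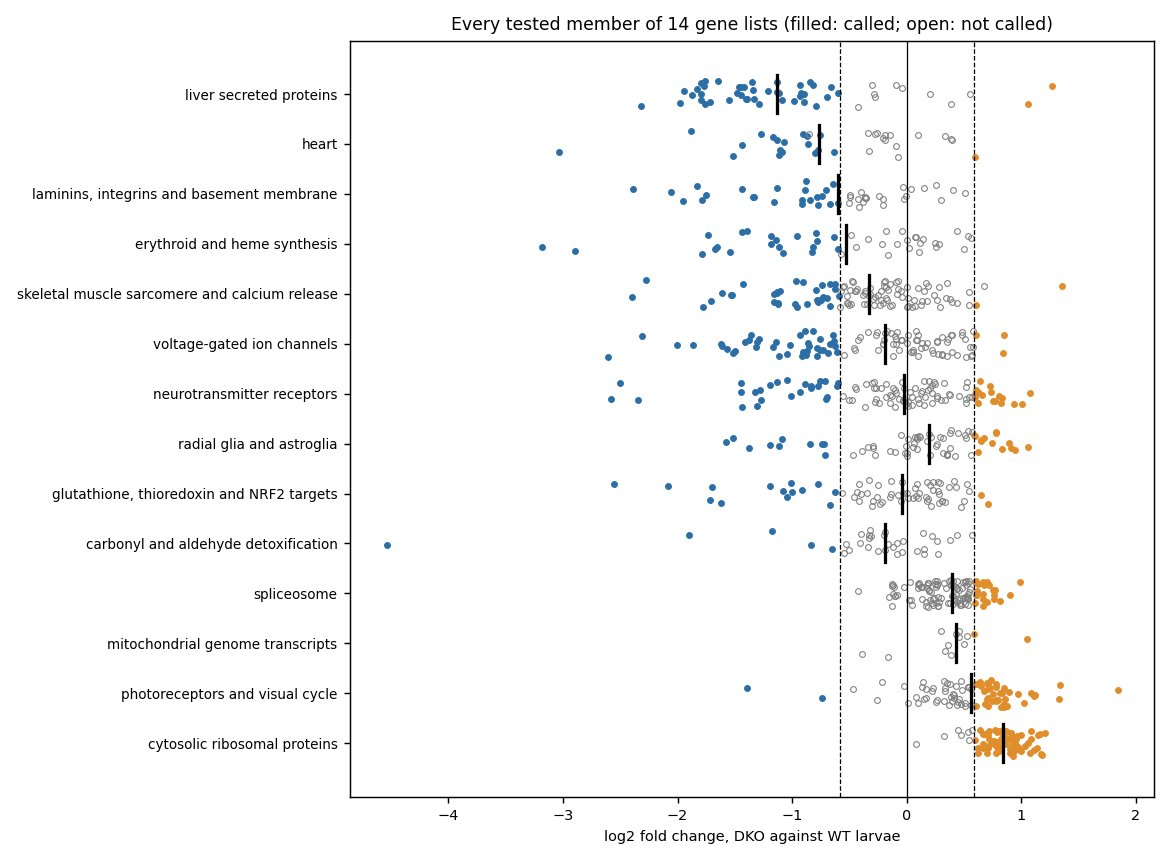
Log2 fold change of DKO against WT larvae for every tested member of 14 gene lists; each point is a gene, filled where it was called and open where it was not, the short bar is the list median and the dashed lines mark a fold change of 1.5 in either direction. Ribosomal proteins lie wholly above 0 around a median of 0.84, while neurotransmitter receptors spread to both sides around -0.019.

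The endocrine list, of islet and pituitary hormones and regulators, had 11 of 51 higher (21.6%) and 9 lower (17.6%), where 7.32% of all genes were higher and 18.0% lower. Without WT replicate 1 there were 6 higher, and without WT replicates 1 and 2 there were 7 higher and 5 lower. With library totals 3 were higher and 12 lower. PCSK1 (ENSDARG00000002600) and PCSK2 (ENSDARG00000019451), the convertases that process prohormones, had medians of 24.9 CPM in DKO and 42.3 CPM in WT for the first (log2 fold change -0.84) and of 18.3 CPM in DKO and 31.3 CPM in WT for the second (log2 fold change -0.74). Both examples are lower and do not stand for the list as a whole. The gene ins was not analysed here. The study also used RT-qPCR on a set of genes, some measured in larvae and others only in dissected organs. LAMA1 was measured only in adult kidney, where the paper reports a rise, and aldh3a2b only in eyes, where it was unchanged. The counts here come from whole larvae, so they do not test those organ measurements. In the sequencing counts 5 of the 20 tested genes of that set fell and none rose. The study had picked some of them after its own sequencing, so this count is no independent evidence of a direction. SLC2A2 (ENSDARG00000056196), a glucose transporter of liver and islet, measured 11.5 to 15.0 CPM (median 13.9) in DKO, against 15.1 to 32.1 CPM (median 18.7) in WT (log2 fold change -0.65, SE 0.172, edgeR adjusted p = 0.00436). SLC2A8 (ENSDARG00000104278), another glucose transporter, measured 1.99 to 3.06 CPM (median 2.60) in DKO, against 3.97 to 4.67 CPM (median 4.44) in WT (log2 fold change -0.76, SE 0.112, edgeR adjusted p = 3.49e-05). Transporters were not the only members to fall, and ARG1 (ENSDARG00000057429), an arginase, measured 0.364 to 0.889 CPM (median 0.669) in DKO, against 0.641 to 1.51 CPM (median 1.18) in WT (log2 fold change -0.85, SE 0.247, edgeR adjusted p = 0.0076). LAMA1 (ENSDARG00000102277), a laminin alpha chain, measured 8.03 to 9.44 CPM (median 9.01) in DKO, against 10.21 to 15.7 CPM (median 14.6) in WT (log2 fold change -0.60, SE 0.112, edgeR adjusted p = 0.00033). The fifth was aldh3a2b, given above. Without WT replicate 1 this count was 3. For SLC2A2 without WT replicate 1 or 2 its log2 fold change was -0.57 to -0.49, which did not pass. For LAMA1 without WT replicate 1, 4, 5 or 6 or DKO replicate 5 its log2 fold change was -0.57 to -0.55, which did not pass. Among the 15 that did not pass were ASS1 (ENSDARG00000103044), of arginine synthesis, with medians of 4.08 CPM in DKO and 5.90 CPM in WT (log2 fold change -0.48), and ODC1 (ENSDARG00000007377), of polyamine synthesis, with 81.1 CPM in DKO and 78.8 CPM in WT (log2 fold change -0.024). In DKO larvae the paper's RT-qPCR found glut2 (SLC2A2), glut8 (SLC2A8), ass1 and odc1 decreased and arg1 unchanged. Of these genes, SLC2A2, SLC2A8 and ARG1 were called lower here, ASS1 was lower in its median but not called, and ODC1 hardly moved. The larval RT-qPCR also found atf4a, atf4b and asl increased and insrb, gck, pkmb, gys1 and ugp2a decreased. None of the latter that was tested here was called, since no gene of the set rose and those that fell are named above. The causes of these differences were not tested. The remaining gene of the RT-qPCR set, ifng1, had no count in any DKO or WT library. A library without a count still allows an expected count of up to about 3 in it.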

How the data were processed

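RNA of untreated zebrafish larvae at 96 hpf had been sequenced by the authors on the DNBseq platform from strand-specific mRNA libraries. Reads were filtered with SOAPnuke and aligned with HISAT2 to GRCz11, and featureCounts 2.0.3 assigned them to genes, the build and this version also being in the submitters' processing notes. The annotation release and the strand setting are not given in the sources used here. The deposited values are expected counts per gene, not normalized, whole except in 94 genes (0.411%), and were rounded. All 23 columns matched a library label and 0 were left over. Library totals were 34316507 to 36804421 counts.

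The DKO and WT libraries were compared in edgeR 4.0.16 (R 4.3.3) with filterByExpr, TMM and the quasi-likelihood test, Benjamini-Hochberg adjustment over 19765 genes, and thresholds of an adjusted p of 0.05 and a fold change of 1.5. DKO was compared with GLO1KO and with AKR1A1AKO in fits of their own. Each library is 1 clutch, and p-values measure the spread among clutches. No pair of libraries of 1 group agreed within sampling noise (lowest mean chi-square 5.90). Alternatives were DESeq2's size factors, library totals, no filter, all libraries in 1 fit, a replicate block, DESeq2 1.42.0, limma-trend (limma 3.58.1), other fold thresholds and each library left out. Leaving out WT replicates 1 and 2 together was added after the data were seen. The test was tried on simulated data.

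The comparison and the 48 gene lists were chosen with earlier results of these data known. A list symbol matched a gene of the same symbol, or with 1 added letter from A to D, a tandem number or both. Copies with a later added letter, such as some crystallins, matched only if listed under their own symbol. Named genes were GLO1, the 12 largest and 12 smallest fold changes among called genes whose groups were separate and whose log2 CPM averaged above 1, up to 3 called members per list and direction with the smallest p, the genes of the study's RT-qPCR, and members chosen for their role, not all of which are given here. Symbols came from a table of gene IDs and matched 20170 of 22856 IDs (88.2%). Symbols in capitals are shared by zebrafish copies, so IDs tell them apart, and near-identical copies may share reads. A list level is the mean log2(CPM + 1) of the tested members. Of 3325 list symbols 2713 matched a gene, so the lists are not complete. The matches were 28 of 50 symbols for exocrine pancreas, 30 of 49 for carbonyl detoxification and 21 of 34 for the RT-qPCR set. The genes slc7a1a, aldh3a1 and akr7a3 were not analysed here.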

Additional observations from a re-analysis of the deposited data

Results flagged for a closer look

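Among the 354 groups of 6 libraries that the named genes give, 25 held 1 library farther from the other 5 than Dixon's 95% critical value of 0.625 allows, where chance gives about 1 in 20 groups. WT replicate 1 was that library 15 times, DKO replicates 3 and 5 were 4 times each, and DKO replicate 6 and WT replicate 2 once each. The values below are CPM, with the nearest other library of the same group after each.

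WT replicate 1 was the highest WT library for basement membrane genes, with 43.9 CPM for COL4A1 (nearest 26.8), 40.1 CPM for COL4A2 (nearest 24.1), 346 CPM for col4a5 (nearest 258), 15.4 CPM for PXDN (nearest 9.62) and 15.0 CPM for ITGB3 (nearest 9.40). It was also the highest for the transferrin receptors, with 33.5 CPM for tfr1a (nearest 22.05) and 130.4 CPM for tfr1b (nearest 101.6). In skin and leukocytes it had 74.3 CPM for DSP (nearest 52.5), 64.4 CPM for ANXA1 (nearest 50.2) and 11.3 CPM for csf1ra (nearest 6.90). JPH1 of muscle measured 22.1 CPM there (nearest 17.4) and CCND2 15.3 CPM (nearest 11.6). It was the lowest WT library for the glial genes GFAP, at 215 CPM (nearest 267), and mbpa, at 50.8 CPM (nearest 57.0), and for PCSK2, at 28.0 CPM (nearest 31.0).

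DKO replicate 5 was the highest DKO library for c9, at 39.3 CPM (nearest 21.7), cela1.4, at 0.981 CPM (nearest 0.674), crygm2f, at 8.37 CPM (nearest 6.90), and nlgn4xb, at 2.67 CPM (nearest 2.34). DKO replicate 3 was the highest for atp2a2a, at 35.044 CPM (nearest 26.3), COL2A1 (ENSDARG00000011407), at 425 CPM (nearest 377), GABRR1, at 25.5 CPM (nearest 18.6), and POU4F3, at 10.030 CPM (nearest 8.496). PARK7 was lowest in DKO replicate 6, at 31.1 CPM (nearest 33.5), and RSL24D1 was highest in WT replicate 2, at 222 CPM (nearest 194.8). For each of these genes that was called, the call was the same in all 12 fits that left out 1 library.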

How the results depend on the processing

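DKO and WT differed under every setting tried, and no named gene that was called changed direction. With library totals in place of TMM, 681 genes were higher and 4856 lower, with a median log2 fold change of -0.18 over the genes tested; of the 5007 genes called, 4241 kept their call. Without a fold threshold 5851 were higher and 6212 lower, and with a fold change above 2 there were 261 higher and 1705 lower. Leaving out 1 library gave 1272 to 1612 higher and 3260 to 3686 lower, both fewest without WT replicate 1, where 4428 kept their call. DESeq2's size factors, no filter, all 23 libraries in 1 fit, DESeq2 and limma-trend kept 4846 to 4989 of the calls.

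With library totals CYP27A1, ctsl.1, kcnh6a, CKMT2, gap43, TAGLN, IRF7, TPI1, nupr1a and ASMT were under the fold threshold, at log2 fold changes of 0.41 to 0.58, and ASS1 passed it (-0.66). Without WT replicates 1 and 2, ctrb.1 (-0.31), PCK1 (-0.22), SLC2A2 (-0.34), CKMT2 (0.49), IRF7 (0.56) and kcnh6a (0.57) did not pass, and HMOX1 did (0.77). The causes were not tested. limma-trend lost kcnh6a, PCK1 and LAMA1, and the fit of all 23 libraries lost ctsl.1 and LAMA1. Libraries of the same replicate number did not deviate together, at correlations of -0.19 to 0.076, and 1 of 6 correlated best with its own number. A replicate block gave 1448 higher and 3462 lower genes and lost the call of LAMA1 (-0.58) and of no other named gene.

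Counts were also simulated from the mean levels of these libraries, with an assumed spread that was not estimated from them. There 38% of genes changed by 1.72 times, 70% of those changed by 2 times and 100% of those changed by 4 or 8 times were called. These rates hold for that spread, so they do not give the share of changes missed in the real libraries. The comparison by protein length was not run.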
